A study of Mus musculus with 6 samples.

Results

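The genes described here encode proteins that bind, take up and activate fatty acids: Fabp3, Fabp5, Dbi, Scp2, Slc27a1, Slc27a4, Acsl1, Acsl3, Acsl4 and Acsl5. They were chosen by symbol, because perfluorooctanoic acid (PFOA) resembles a fatty acid. All 10 were found among the 18388 gene symbols of the deposited table, where they are written in upper case (FABP3, FABP5, DBI, SCP2, SLC27A1, SLC27A4, ACSL1, ACSL3, ACSL4, ACSL5). RNA-seq had been carried out on morula-like aggregates, clusters of cells that model the compacting mouse embryo and were made from expanded pluripotent stem cells of the mouse, which can form both embryonic and extraembryonic tissues. The aggregates were kept in N2B27LCDM medium and then in an induction medium at 37 °C with 5% CO2 and 20% O2, per the labels' protocols. There were 3 libraries from aggregates given the vehicle (DMSO) and 3 from aggregates given PFOA, a persistent fluorinated surfactant with a carboxylic acid head and a perfluorinated tail. The labels state neither genotype, strain, dose nor exposure time, and they do not tell separate cultures from repeat libraries of 1 culture, so the p-values describe the spread among these libraries, which may be technical.

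Long-chain fatty acids are poorly soluble in water and enter cells partly with the help of fatty acid transport proteins of the SLC27 family in membranes. Long-chain acyl-CoA synthetases (ACSL) join them to coenzyme A, which traps them in the cell and makes them usable for membrane lipids, storage or oxidation. In the cytosol free fatty acids are carried by fatty acid binding proteins (FABP), their CoA esters by the acyl-CoA binding protein that Dbi encodes, and sterols and other lipids by sterol carrier protein 2.

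The cell type label was checked against marker genes. Each of 10 pluripotency markers had a mean of at least 1 FPKM, a read density per kilobase of transcript that is scaled to the size of the library, with Pou5f1 between 849 and 1018 and Nanog between 262 and 282 FPKM. Markers of other lineages were present too: the trophectoderm keratins Krt8 and Krt18 reached 245 and 294 FPKM. Of the 10 trophectoderm markers, 9 had a mean of at least 1 FPKM. The factors Cdx2 (5.9 to 8.4 FPKM), Gata3 (3.63 to 4.46) and Eomes (4.7 to 5.72) were among them. So were Tfap2c (25.6 to 28.8), Hand1 (13.5 to 15.9) and Ascl2 (14.6 to 19.2). The exception was the factor Elf5, at most 0.10. Summed FPKM of the pluripotency list ran from 4665 to 4880 in DMSO and from 4032 to 4517 in PFOA. It ran from 74.3 to 82.6 and from 64.9 to 74.2 for 12 fibroblast markers, and from 552 to 629 and from 535 to 609 for 10 trophectoderm markers. For 9 primitive endoderm markers it was 22.8 to 24.9 and 26.4 to 26.8, and for 8 neural markers 36.2 to 36.95 and 33.7 to 34.5. None of the markers was at 0 in all libraries (0 genes in each list). The pluripotency, fibroblast, endoderm and neural sums thus lay apart between the groups. For the fibroblast list this was narrow, with a lowest DMSO sum of 74.27 and a highest PFOA sum of 74.23. The genes of a list did not all move the same way, and a sum follows its most abundant genes. The mean was higher in PFOA for 5 of the 10 pluripotency markers, whose sum was lower through Dppa5a (2239 and 1952 FPKM) and Pou5f1 (979 and 885), and for 5 of the 8 neural markers, whose sum was lower through Tubb3 (27.0 and 24.1). It was higher for 3 of the 12 fibroblast, 6 of the 9 endoderm and 5 of the 10 trophectoderm markers. The most abundant fibroblast marker, Vim, had means of 48.0 FPKM in DMSO and 42.9 in PFOA. The most abundant endoderm markers were Col4a1 (9.53 and 10.7) and Lama1 (6.28 and 7.66). The part of these cell type markers in the values below was not tested. The whole DMSO libraries added up to 641975 to 657239 FPKM and the PFOA libraries to 585739 to 630644, lowest in PFOA 1; the depth in reads is unknown. The DMSO 3 library stood nearest to PFOA 2 and PFOA 3: its Spearman's rho over genes was 0.9968 and 0.9962 with these. Its rho was 0.9946 with DMSO 1, 0.9955 with DMSO 2 and 0.9945 with PFOA 1, so PFOA 1 was not nearer to it than the other DMSO libraries. Without DMSO 3, 52 genes over the whole table were called, and 0 of the 10 described here (limma, smallest adjusted p = 0.238).

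None of the fatty acid handling genes passed the test for a difference between PFOA and DMSO (0 of 10 called, limma on log2(FPKM + 1), Benjamini-Hochberg adjusted p from 0.223 for Scp2 to 0.969 for Slc27a4). All 10 had passed the filter on low values, a mean of at least 1 FPKM over the 6 libraries. The background was equally sparse, with 0.00842% of 11876 tested genes called, that is 1 gene, lower in PFOA. At an unadjusted p under 0.05 there was 1 of the 10, Scp2, against 21.1% of all tested genes. The groups did not overlap for 4 of the 10, Fabp3 and Scp2 with PFOA lower and Acsl3 and Acsl4 with PFOA higher, against 27.2% of all tested genes (13.5% with PFOA higher and 13.7% with PFOA lower). The log2 differences ranged from −0.12 for Fabp3 to 0.11 for Acsl4, with a median of −0.030, beside −0.0065 over all tested genes, and their median size was 0.071, beside 0.076. The widest 95% confidence bounds among the 10 were −17.7% for Fabp5 and 17.8% for Acsl1 on the FPKM + 1 scale, so the data bound the differences without showing that there were none. In these bulk libraries fewer cells of a type and less RNA per cell cannot be told apart.

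**Figure D1:**
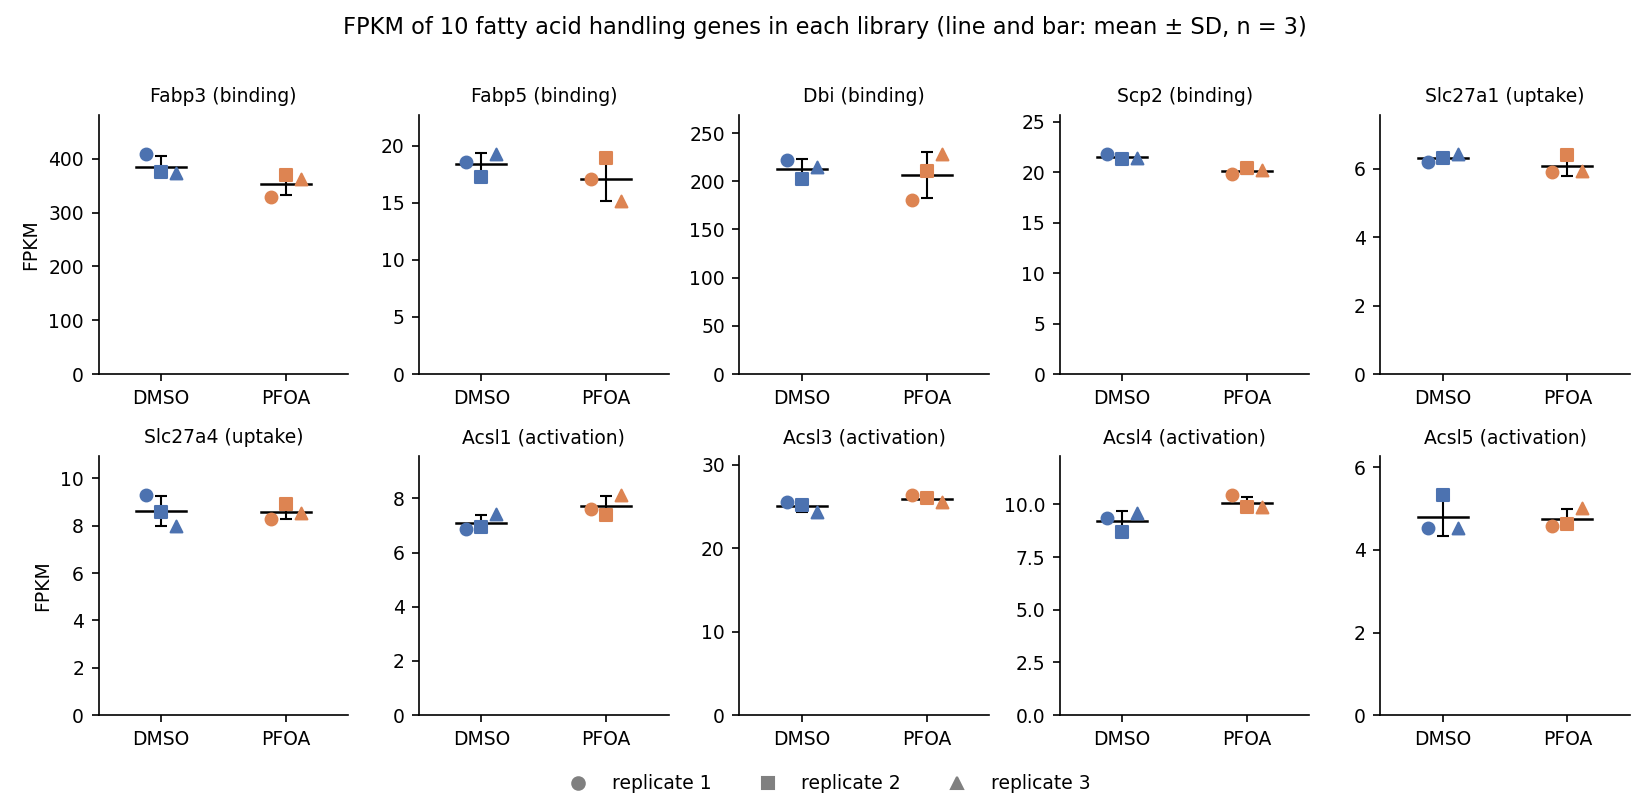
FPKM (y axis, from 0, own scale per panel) of each of the 10 genes in 3 DMSO (blue) and 3 PFOA (orange) libraries, with marker shape for the replicate number and black lines and bars for the mean ± SD (n = 3). The groups lie apart for Fabp3, Scp2, Acsl3 and Acsl4 and overlap for the other 6 genes.

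The regions upstream of the start site are shown for Scp2, Acsl3 and Acsl4, the genes with groups that did not overlap and an upstream region outside annotated exons, and for Slc27a1, the single gene of the set with a MYC-type E-box there. Each is the 250 bases before an annotated start, from RefSeq on GRCm38.p6, an older build than the GRCm39 that the submitters' processing notes name. They lie at chr4:108118548-108118797, minus strand, at chr1:78657575-78657824, plus strand, at chrX:142390536-142390785, minus strand, and at chr8:71570344-71570593, plus strand, the most downstream of 3 Slc27a1 windows. Capitals mark the nuclear receptor hexamer AGGTCA in Scp2 and the E-box CACGTG in Slc27a1.
Scp2: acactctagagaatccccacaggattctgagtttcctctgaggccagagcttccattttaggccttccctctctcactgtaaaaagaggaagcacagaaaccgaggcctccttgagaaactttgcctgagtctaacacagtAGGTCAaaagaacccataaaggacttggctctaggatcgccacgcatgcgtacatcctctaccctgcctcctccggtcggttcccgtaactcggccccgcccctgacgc
Acsl3: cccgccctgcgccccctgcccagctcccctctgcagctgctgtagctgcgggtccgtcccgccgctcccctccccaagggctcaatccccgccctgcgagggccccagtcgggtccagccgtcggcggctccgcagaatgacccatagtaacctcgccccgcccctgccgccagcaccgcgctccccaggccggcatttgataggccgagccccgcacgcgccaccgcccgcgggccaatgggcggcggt
Acsl4: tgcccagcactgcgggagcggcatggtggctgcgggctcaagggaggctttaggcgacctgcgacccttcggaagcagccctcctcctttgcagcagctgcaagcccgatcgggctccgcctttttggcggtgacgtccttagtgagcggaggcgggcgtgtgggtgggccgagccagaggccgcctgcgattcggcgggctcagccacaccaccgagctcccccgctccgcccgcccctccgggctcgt
Slc27a1: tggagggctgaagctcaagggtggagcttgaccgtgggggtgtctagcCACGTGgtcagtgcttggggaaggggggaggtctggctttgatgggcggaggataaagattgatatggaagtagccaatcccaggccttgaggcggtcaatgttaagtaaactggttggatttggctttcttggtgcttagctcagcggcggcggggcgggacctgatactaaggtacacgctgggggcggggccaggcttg
All motifs were searched on both strands in 300-base windows that run to 50 bases after the start. Windows were found for 9 of the 10 genes, 13 windows in all. AGGTCA, the nuclear receptor hexamer, was in 1 of these 13 windows and in 16.3% of the 32851 mouse windows of the RefSeq table. Only the single hexamer was searched for, not a pair of hexamers. CACGTG was in 1 of the 13 and in 7.15% of all. TATAAA was in 0 of the 13 and in 13.6% of all, and the GC box GGGCGG in 7 of the 13, from 6 genes, and in 35.7% of all. The bases printed were 75.6% G or C for Acsl3, 70.8% for Acsl4, 58.4% for Slc27a1 and 53.6% for Scp2, beside a median of 52.4% over all windows. A match is a description of the letters only.

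The 10 genes spanned a wide range of levels, and their order was the same in each of the 6 libraries. By mean FPKM over all libraries, which is a level per transcript length, it was Fabp3 (369.5), Dbi (209.5), Acsl3 (25.5), Scp2 (20.8), Fabp5 (17.7), Acsl4 (9.64), Slc27a4 (8.60), Acsl1 (7.39), Slc27a1 (6.195) and Acsl5 (4.77). The ranges over libraries of neighbours overlapped for Acsl4 and Slc27a4 and for Slc27a4 and Acsl1, although their order held in 6 of 6 libraries. Whether those neighbours differ in level was not tested. Fabp3 ranked 217th and Dbi 422nd among all gene symbols of the table, whereas Slc27a1 and Acsl5 lay near its middle, above 56.1% and 52.4% of symbols. The sum of the 10 was 0.107% ± 0.0044 of all FPKM with DMSO and 0.108% ± 0.0032 with PFOA (mean ± SD over 3 libraries), and most of it came from the 4 binding proteins, at 0.0979% ± 0.0043 and 0.0973% ± 0.0036. The 4 synthetases made up 0.00708% ± 0.000058 and 0.00791% ± 0.00040 of all FPKM, with the groups apart, and the summed FPKM of the whole libraries was itself lower in PFOA.

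Among the binding proteins, Fabp3, the heart-type fatty acid binding protein that is abundant in oxidative muscle, was the most abundant. The DMSO libraries 1 to 3 held 408, 374 and 373 FPKM and the PFOA libraries 1 to 3 held 329, 370 and 362. All PFOA values lay under all DMSO values, though PFOA 2 and DMSO 3 were only a little apart, and PFOA 1 was lowest. The means were 385 ± 20 and 354 ± 22 (SD, n = 3 each; log2 difference −0.12, SE 0.057, limma with Benjamini-Hochberg adjusted p = 0.256). Fabp5, the epidermal type, which binds fatty acids and retinoic acid, stood at 18.6, 17.3 and 19.3 FPKM with DMSO and at 17.1, 18.9 and 15.2 with PFOA. The groups overlapped, with PFOA 3 lowest (18.4 ± 1.0 and 17.1 ± 1.9; log2 difference −0.11, SE 0.077, limma adjusted p = 0.448). Fabp3 exceeded Fabp5 19.3-fold to 23.8-fold in the 6 libraries. Of the remaining family members in the table, Fabp4 was at a mean of 0.97 FPKM, Fabp7 at 0.16 and Fabp6 at 0.085, so Fabp3 was 95.1% ± 0.36 of the summed FPKM of the family in DMSO and 95.1% ± 0.46 in PFOA.

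Dbi, whose product carries long-chain acyl-CoA esters and was first named as an inhibitor of diazepam binding, stood at 222, 202 and 214 FPKM with DMSO and at 180, 210 and 228 with PFOA. The PFOA libraries held both the lowest and the highest value (212.8 ± 9.9 and 206 ± 24; log2 difference −0.051, SE 0.079, limma adjusted p = 0.742). Its coefficient of variation in PFOA, 11.6%, was the largest of the 10 genes in either group. Scp2 encodes sterol carrier protein 2 and, from another promoter of the same gene, the peroxisomal thiolase SCPx. It stood at 21.8, 21.4 and 21.4 FPKM with DMSO and at 19.8, 20.4 and 20.2 with PFOA, the tightest of the 10 in DMSO with a coefficient of variation of 1.1%. All PFOA values lay under all DMSO values (21.5 ± 0.24 and 20.1 ± 0.32, a difference of means of −6.4%; log2 difference −0.091, 95% confidence interval −0.18 to −0.0039, limma adjusted p = 0.223). Of the 50-base words in the annotated transcripts of Scp2, 29.7% also occur in its pseudogene Scp2-ps2, and 29.2% of those of Fabp3 occur in Fabp3-ps1, so these values are uncertain where the counting could split reads. Counted over all other genes the shares were 37.3% for Fabp3, 29.7% for Scp2, 5.5% for Fabp5 and 0.98% for Dbi, and at most 9.2%, for Acsl1, among the transporters and synthetases. The genes most like Scp2, by Pearson's r of log2(FPKM + 1) over the 6 libraries, were Phb2 (0.998), Wdr86 (0.997) and Lmnb2 (0.995). Each of these also had all PFOA values under all DMSO values, so r includes the difference between the groups. With 6 libraries likeness is easily reached, and 162 of 11875 genes had an r of at least 0.95.

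Of the transport proteins, Slc27a1 (FATP1), the transporter of muscle and fat, stood at 6.21, 6.32 and 6.42 FPKM with DMSO and at 5.90, 6.40 and 5.92 with PFOA. PFOA 2 lay among the DMSO values while the other PFOA libraries were lower (6.32 ± 0.11 and 6.07 ± 0.28; log2 difference −0.049, SE 0.055, limma adjusted p = 0.635). Slc27a4 (FATP4), the transporter of gut and skin, stood at 9.28, 8.59 and 8.00 FPKM with DMSO and at 8.29, 8.90 and 8.54 with PFOA. Its PFOA values fell inside the DMSO range (8.62 ± 0.64 and 8.58 ± 0.31; log2 difference −0.0054, 95% confidence interval −0.15 to 0.14, limma adjusted p = 0.969). Slc27a4 made up 37.97% ± 2.9 of the summed FPKM of its family in DMSO and 38.6% ± 0.31 in PFOA, and Slc27a1 27.8% ± 0.82 and 27.3% ± 0.32. Slc27a3 (mean 5.20 FPKM) and Slc27a2 (2.36) followed, and Slc27a5 and Slc27a6, at 0.088 and 0.038, were close to the 0.01 resolution of the table.

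Acsl3 was the most abundant synthetase; its product sits in the endoplasmic reticulum and on nascent lipid droplets. It stood at 25.6, 25.2 and 24.3 FPKM with DMSO and at 26.3, 26.0 and 25.6 with PFOA, so the groups were apart by a margin of 0.01 FPKM, between DMSO 1 at 25.56 and PFOA 3 at 25.57 (25.0 ± 0.65 and 25.97 ± 0.39; log2 difference 0.051, SE 0.039, limma adjusted p = 0.475). Acsl4, which prefers arachidonic acid and thereby feeds oxidisable phospholipids in ferroptosis, stood at 9.36, 8.70 and 9.61 FPKM with DMSO and at 10.4, 9.87 and 9.85 with PFOA. All its PFOA values lay above all DMSO values (9.22 ± 0.47 and 10.05 ± 0.32; log2 difference 0.11, 95% confidence interval −0.011 to 0.24, limma adjusted p = 0.272). Acsl1, the main form in liver, heart and fat and a classical PPARα target there, stood at 6.87, 6.96 and 7.42 FPKM with DMSO and at 7.61, 7.39 and 8.11 with PFOA. PFOA 2 lay just under DMSO 3 and the other PFOA values were above all DMSO values (7.08 ± 0.30 and 7.70 ± 0.37; log2 difference 0.11, SE 0.057, limma adjusted p = 0.316). Acsl5, known from intestine and mitochondria, stood at 4.54, 5.32 and 4.53 FPKM with DMSO and at 4.58, 4.63 and 5.02 with PFOA. The groups overlapped, with DMSO 2 highest (4.80 ± 0.45 and 4.74 ± 0.24; log2 difference −0.011, SE 0.072, limma adjusted p = 0.943).

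The makeup of the ACSL family was close in both groups. Acsl3 made up 52.2% ± 1.4 of its summed FPKM in DMSO and 51.6% ± 0.85 in PFOA, Acsl4 19.2% ± 0.97 and 19.98% ± 0.44, Acsl1 14.8% ± 0.60 and 15.3% ± 0.69, and Acsl5 9.99% ± 0.95 and 9.43% ± 0.50 (SD, n = 3 each). Acsl6, the form of brain, which is not among the 10, made up the remaining 3.87% ± 0.57 and 3.62% ± 0.35. The groups overlapped for each of these shares, which were not tested. Acsl3 exceeded Acsl4 2.53-fold to 2.90-fold over the 6 libraries. Utp14b, a gene inside the Acsl3 locus, holds 3.6% of the 50-base words of Acsl3. Named after its values were seen, it was 7.45 ± 0.31 FPKM with DMSO and 8.70 ± 0.55 with PFOA, with the groups apart (log2 difference 0.20, SE 0.060, limma adjusted p = 0.144, and 0.11 with the trend on transcript length removed).

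**Figure D2:**
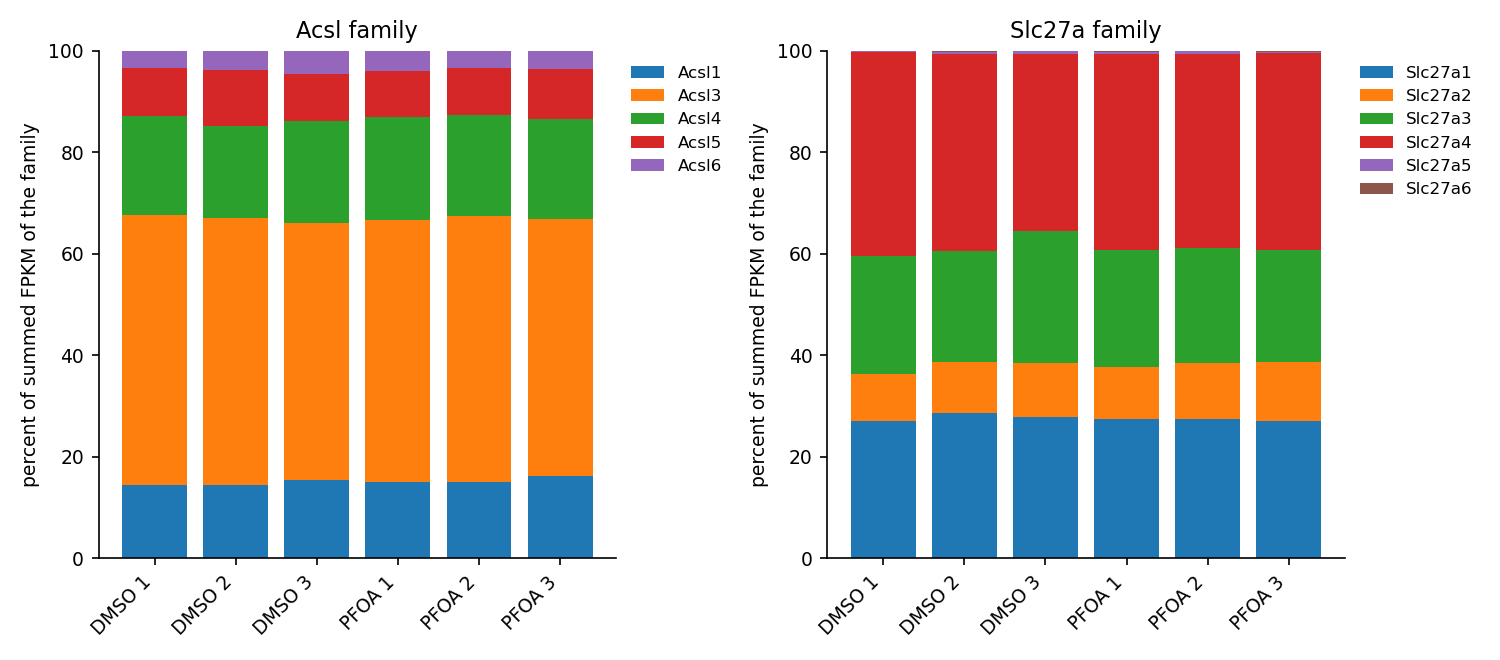
Percent of the summed FPKM of the ACSL family (left) and the SLC27A family (right) held by each gene (stacked colours) in each of the 6 libraries (x axis). Acsl3 holds 50.6% to 53.3% of its family in every library, and Slc27a4 34.8% to 40.3% of its own.

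Over the whole table the differences ran with transcript length, and the 10 genes had the sign of genes of similar length, except Slc27a4 and Acsl5. Over 11705 tested genes with a known length, the log2 difference and the length of the longest coding transcript had a Spearman's rho of 0.596; genes do not count as independent replicates. The 4 binding proteins have the shorter transcripts (569 to 2640 nt) and all 4 were lower in PFOA on average (Dbi not after quantile normalization, and Fabp3, Fabp5 and Dbi not with the length trend removed), while the 4 synthetases have transcripts of 3897 to 5280 nt and 3 of the 4 were higher. Both transport proteins (2795 and 4054 nt) were lower on average. Of all tested genes 47.6% had a log2 difference above 0, so a gene of the table was about as often lower as higher. Genes with a transcript within a factor of 1.2 of that of Fabp3 had a median log2 difference of −0.16 (445 genes, 88.5% lower), beyond the −0.12 of Fabp3 itself. Those around Dbi were at −0.19 (162 genes) and those around Fabp5 at −0.14 (621 genes), against −0.051 and −0.11 for the genes themselves. Those around Scp2 were at −0.021 (2499 genes), against −0.091. Around Acsl4 the median was 0.053 (1852 genes) and around Acsl1 0.020 (2645 genes), against 0.11 for either gene. It was 0.021 around Acsl3 (2637 genes) and −0.018 around Slc27a1 (2542 genes), against 0.051 and −0.049. Slc27a4 and Acsl5 had the opposite sign to their neighbours, at −0.0054 against 0.024 (2579 genes) and −0.011 against 0.029 (2490 genes). With a trend on length removed from each library, the log2 differences of Fabp3, Fabp5 and Dbi turned to 0.035, 0.031 and 0.15, while that of Scp2 was −0.060, of Acsl1 0.090, of Acsl4 0.059, of Acsl3 0.033, of Slc27a1 −0.025, of Slc27a4 −0.027 and of Acsl5 −0.038. None passed in that fit either (0 of 10, limma, smallest adjusted p = 0.363, for Dbi), with 1 of the 10 at an unadjusted p under 0.05, against 0 called genes and 13.3% at an unadjusted p under 0.05 over all 11876 genes of that fit.

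**Figure D3:**
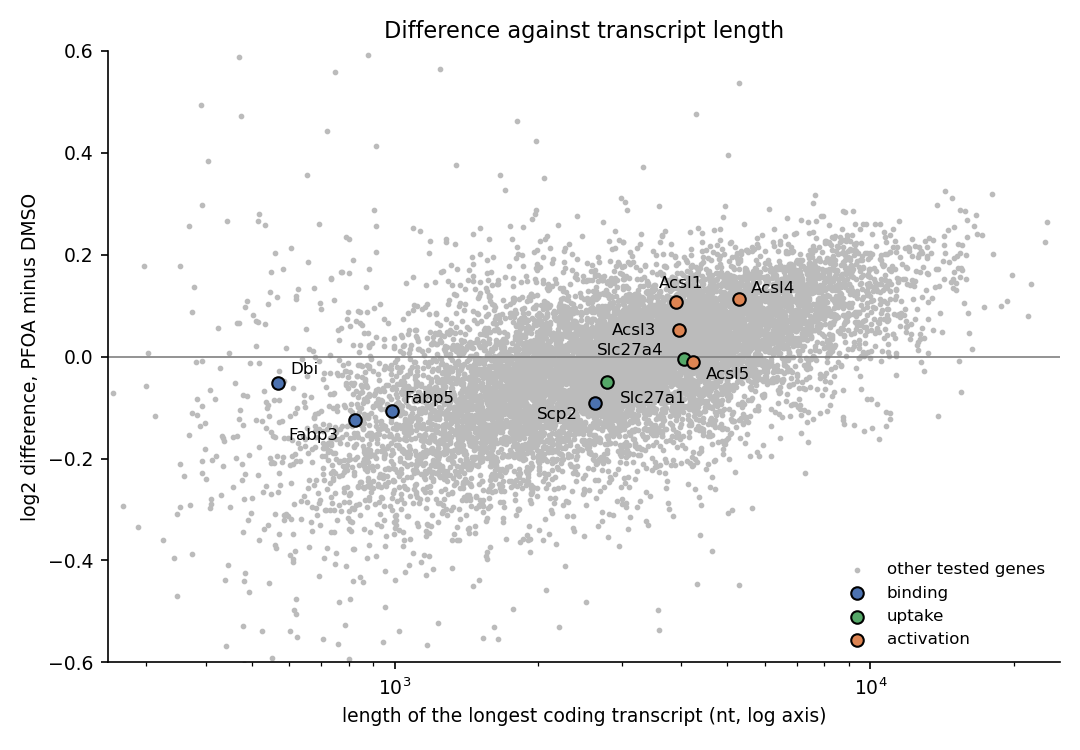
Log2 difference between PFOA and DMSO (y axis) against the length of the longest coding transcript (x axis, log scale) for 11705 tested genes (grey), with the 10 fatty acid handling genes coloured by role; 44 genes lie outside the axes. Short transcripts lie mostly under 0 and long ones above it, and the 10 genes lie within the grey cloud.

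**Figure D4:**
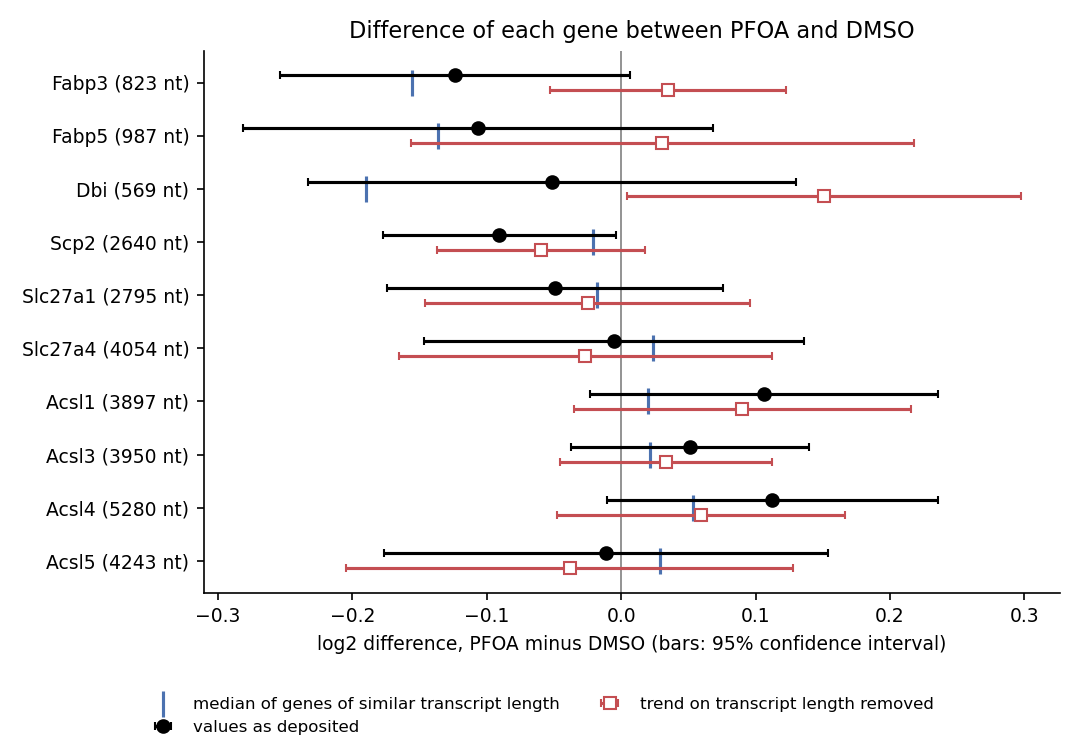
Log2 difference between PFOA and DMSO for each of the 10 genes, with the length of its longest coding transcript, as deposited (black) and with the per-library trend on length removed (red), with 95% confidence intervals, and the median of genes of similar length (blue tick). Fabp3, Fabp5 and Dbi move from under 0 to above 0 when the trend is removed, and the signs of the other 7 genes stay.

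Other genes of fatty acid handling were described from 5 lists, none of which had a called gene (0 of 66 tested genes in all, limma, with 11 at an unadjusted p under 0.05, against 21.1% of all tested genes). The 12 tested relatives of the 10 genes had a median log2 difference of −0.057 (4 higher, 8 lower). Crabp1 encodes a retinoic acid carrier of the same protein family as the FABPs. It stood at 38.7, 40.5 and 34.95 FPKM with DMSO and at 30.6, 29.9 and 32.5 with PFOA, so the groups were apart (log2 difference −0.29, SE 0.059, limma adjusted p = 0.11, and −0.12 with the length trend removed). All 9 tested acyl-CoA thioesterases, which undo the synthetases' reaction, were lower on average, also after quantile normalization, but 5 of the 9 with the length trend removed. Their median was −0.14, beside −0.0065 over all tested genes, and became −0.0076 with that trend removed. Ppt2, a lysosomal thioesterase, was 15.5 ± 0.78 FPKM with DMSO and 13.8 ± 0.28 with PFOA, and Them4 3.17 ± 0.19 and 2.64 ± 0.18 (limma adjusted p = 0.161 and 0.177). Their log2 differences of −0.15 and −0.20 became −0.074 and −0.13 with the length trend removed.

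The 10 tested uptake and lipoprotein receptor genes had a median of 0.044 (6 higher, 4 lower). The lipoprotein receptor gene Lrp1 was 6.17 ± 0.34 FPKM with DMSO and 6.87 ± 0.24 with PFOA, and caveolin 1 (Cav1) 1.28 ± 0.30 and 0.97 ± 0.11 (limma adjusted p = 0.233 and 0.313). With the length trend removed the log2 difference of Lrp1, whose transcript has 14888 nt, turned from 0.13 to −0.011, and that of Cav1 went from −0.20 to −0.18. The 5 tested synthetases for shorter acyl chains had 3 higher and 2 lower (median 0.00094), with the acetyl-CoA synthetase Acss2 at 4.72 ± 0.31 and 4.99 ± 0.18 and Acsf2 at 13.1 ± 0.40 and 13.3 ± 0.47. Of 30 tested genes that put acyl-CoA into glycerolipids, sterol esters and lipid droplets, 15 were higher and 15 lower (median 0.0017). Soat1, which esterifies cholesterol, was 11.9 ± 0.60 FPKM with DMSO and 13.5 ± 0.48 with PFOA, with the groups apart (log2 difference 0.17, limma adjusted p = 0.15, and 0.069 with the length trend removed). The lysophosphatidate acyltransferase Agpat5 was 10.5 ± 0.24 and 9.51 ± 0.18, also apart, with a longest transcript of 10779 nt (log2 difference −0.14, limma adjusted p = 0.167, and −0.26 with the length trend removed).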

How the data were processed

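The authors deposited 1 table of FPKM to 2 decimals, with 1 column per library. HISAT2 2.0.4, Bowtie2 2.2.5 and GRCm39 are named per the submitters' processing notes, without their roles; for the counting tool and annotation nothing is stated. Of 523 values of genes with a 0 in some library, 47.2% lay within 0.15 of a whole multiple of the gene's smallest (14.8% of 15152 values without that restriction, which was added after a first result). Evenly spread remainders would give 30%, but values close to the smallest were left out, so 30% is only a rough guide. Since many values lay off whole multiples, reads were not recovered and count models not used. Groups and replicate numbers come from the titles.

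Symbols were matched to mouse names (18234 matched, 154 did not). Genes with a mean of at least 1 FPKM were analysed as log2(FPKM + 1), which understates the change of low genes, with limma 3.58.1 under R 4.3.3, two-sided, with an intensity trend and Benjamini-Hochberg adjustment over 11876 genes (threshold 0.05). The fit was tested on simulated data in which genes were drawn independently. Unlike the real data, these had no trend on transcript length. Lengths (known for 98.6% of tested genes) and 50-base words came from GENCODE M21. Length trends were natural splines with 4 degrees of freedom, fitted per library to deviations from each gene's mean. The window of a factor of 1.2 for genes of similar length replaced a slightly wider one after its values had been seen. The genes, lists and tests were chosen with earlier results of these data known. Named besides the 10 genes were the 2 genes of each list with the smallest p (1 of them is not reported here), the 3 genes most like the one with the smallest p, and the first markers of the cell type lists with others as examples, and Utp14b, chosen after its values were seen.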

Additional observations from a re-analysis of the deposited data

How the results depend on the processing

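None of the 10 genes passed the threshold under any of the 14 alternatives run (0 in each, with 0 to 2 at an unadjusted p under 0.05; limma adjusted p between 0.188 and 0.989). Over all genes 1 was called, and the count was 0 without the variance trend, without a filter on low values, with a trend on length removed, with the replicate number as a block and with a term for DMSO 1 and 2, where 818 to 2730 genes had an unadjusted p under 0.05 in the fits that called none. It ranged from 0 to 94 when a library was left out, at 52 without DMSO 3 and 94 without PFOA 2. The same-numbered libraries deviated from their group means with r = −0.11, −0.0095 and −0.14. With 3 libraries per group these values cannot show whether same-numbered libraries shared a culture or batch. In the replicate block fit each log2 difference was as in the fit without it, by construction, since every number occurs in both groups. The limma adjusted p of Scp2 was 0.378 with the block and 0.223 without it. Quantile normalization turned Dbi to 0.037. Removal of the length trend turned Fabp3 to 0.035, Fabp5 to 0.031 and Dbi to 0.15, by its construction. With the term for DMSO 1 and 2, where DMSO 3 alone serves as control, the fit turned Slc27a4 to 0.089 and Acsl5 to 0.054; the cause was not tested. With libraries left out in turn the log2 difference ran from −0.13 to 0.041 for Dbi, −0.053 to 0.043 for Slc27a4 and −0.046 to 0.052 for Acsl5, while the other 7 genes kept their sign: −0.16 to −0.073 for Fabp3, −0.18 to −0.030 for Fabp5, −0.10 to −0.079 for Scp2, −0.082 to −0.032 for Slc27a1, 0.073 to 0.14 for Acsl1, 0.031 to 0.066 for Acsl3 and 0.075 to 0.14 for Acsl4. Dbi was above 0 without PFOA 1. Slc27a4 was above 0 without DMSO 1 or PFOA 1, and Acsl5 without DMSO 2, PFOA 1 or PFOA 2. Acsl5 has no value with a mean FPKM of at least 5, since it lies under it. Of 70 medians of the other lists, 18 moved by more than the spread between libraries. Without a filter the median was −0.015 for the relatives, 0.0046 for the receptors and −0.050 for the thioesterases, with a mean FPKM of at least 5 −0.10 for the relatives and −0.029 for the glycerolipid genes, and with the length trend removed 0.0053 for the receptors, −0.0076 for the thioesterases and 0.019 for the glycerolipid genes. The term for DMSO 1 and 2 gave 0.069 for the shorter-chain synthetases. With libraries left out, the medians ran from −0.098 to −0.060 for the relatives, 0.0086 to 0.074 for the receptors, −0.017 to 0.037 for the shorter-chain synthetases, −0.15 to −0.091 for the thioesterases and −0.031 to 0.00071 for the glycerolipid genes. The depth behind the values is unknown.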
